A study of Mus musculus with 6 samples.

Results

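Fibroblasts of the brain coverings and of the space around brain vessels were a minor population of these cell suspensions, and they were taken here by their genes alone. A barcode was called a fibroblast when it held at least 1 unique molecular identifier (UMI, the count of 1 RNA molecule) for at least 4 of the 7 genes *Col1a1*, *Col1a2*, *Dcn*, *Lum*, *Col3a1*, *Slc6a13* and *Islr*. It was dropped when it held UMIs for more than 1 of 6 genes of other cells, namely *Cldn5*, *Flt1*, *P2ry12*, *Tmem119*, *Kcnj8* and *Myh11*. Of 33273 barcodes in 6 libraries, 27530 passed the limits of 250 to 6000 genes and under 25% mitochondrial UMIs, and 107 of these met the rule.

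The libraries came from female C57Bl/6J wild-type mice and were made by droplet-based single-cell RNA sequencing. Cortices of mice aged 3 weeks gave 3 libraries and hippocampi of mice aged 5 weeks gave the other 3. In each of the 2 preparations, cells of 3 mice were pooled into 1 suspension that was run as 3 technical replicates, so the libraries of a preparation are not separate animals and no p-value can be given for a difference between preparations. Region, age and preparation changed together and cannot be told apart. The tissue was freed of most white matter, digested with enzymes and cleared of myelin, no cell sorting is described, and the labels do not say how much of the meninges stayed on it. Library totals ran from 39662203 to 50024850 UMIs, and the 107 fibroblasts held 1000322 UMIs together.

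As background, brain fibroblasts lie in the dura, the arachnoid and the pia, and along larger vessels between the smooth muscle and the outer limiting membrane of the tissue. They secrete fibrillar collagens and small leucine-rich proteoglycans, which bind and space collagen fibres, and the pial cells sit on a basement membrane of laminins and type IV collagen. Meningeal fibroblasts are also known as a source of retinoic acid and of bone morphogenetic proteins during brain development, and arachnoid cells form a barrier layer that carries transporters for organic ions. Mural cells, meaning pericytes and vascular smooth muscle cells, and endothelial cells are the neighbours against which the fibroblasts are described here.

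The promoters of 3 genes that were high in the fibroblasts are shown to give the sequence context of a collagen of the rule, *Col3a1*, and of *Gjb2* and *Gjb6*, connexin genes that lie next to each other and were not part of the rule. Each is the 150 bases before the RefSeq start on GRCm38.p6, written 5′ to 3′ on the gene's strand, and none overlaps an exon of GENCODE M21. The *Col3a1* window is chr1:45311388-45311537 on the plus strand, and those of *Gjb2* and *Gjb6* are chr14:57104703-57104852 and chr14:57133612-57133761 on the minus strand. Capitals mark the only match found when the TATA box TATAAA, the CCAAT box and the E-box CAGCTG were searched on both strands.
Col3a1: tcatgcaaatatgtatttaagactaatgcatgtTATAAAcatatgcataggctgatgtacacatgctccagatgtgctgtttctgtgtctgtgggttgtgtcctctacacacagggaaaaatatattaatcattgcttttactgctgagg
Gjb2: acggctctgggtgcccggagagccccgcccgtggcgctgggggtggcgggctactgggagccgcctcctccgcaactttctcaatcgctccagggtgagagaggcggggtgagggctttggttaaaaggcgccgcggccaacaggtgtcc
Gjb6: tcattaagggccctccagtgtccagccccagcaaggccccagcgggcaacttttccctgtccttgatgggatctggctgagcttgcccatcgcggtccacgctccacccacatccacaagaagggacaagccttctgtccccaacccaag

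The TATAAA match in *Col3a1* began 117 bases before the start, and TATAAA was found in 7.57% of all 32851 RefSeq windows of this length, CCAAT in 24.5% and CAGCTG in 8.39%. A match is a string of letters and not a shown binding site, and the RefSeq table held entries for 4 of the 7 rule genes.

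The fibroblasts were 0.389% of the kept cells (95% exact Clopper-Pearson interval 0.319% to 0.469%, which covers counting error only). The cortical libraries held 20, 15 and 30 of them and the hippocampal libraries 10, 20 and 12. Their share was 0.490% ± 0.181 (SD, n = 3 technical replicates) of the cortical and 0.295% ± 0.107 (SD, n = 3) of the hippocampal cells, and the single libraries overlapped, as the plot of shares shows. Their median depth was 9976 UMIs in cortex and 7080.5 in hippocampus, against 5857 and 6775 over all kept cells. In all, 1009 barcodes occurred in more than 1 library of the same preparation, 83 of them cortical and 926 hippocampal, and no fibroblast had such a barcode.

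**Figure D1:**
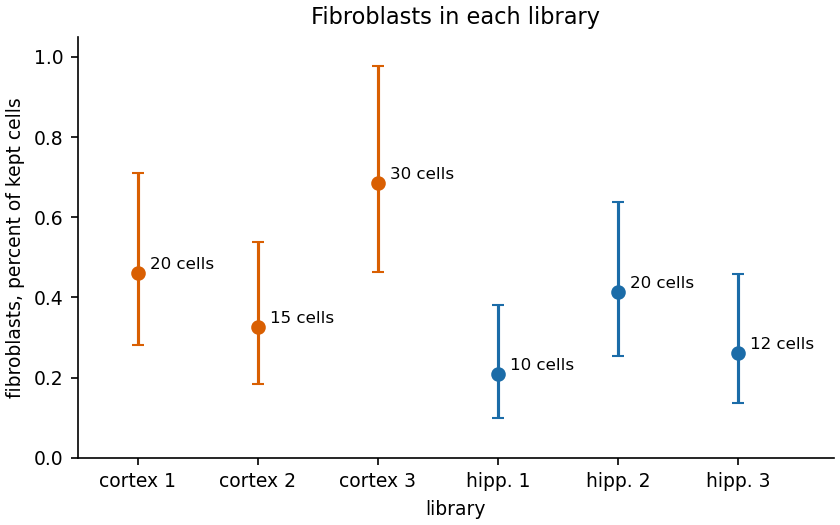
Share of kept cells that met the fibroblast rule in each library, in percent, with exact 95% Clopper-Pearson intervals as bars and the number of fibroblasts beside each point. Cortical libraries (orange) lie between 0.327% and 0.685% and hippocampal libraries (blue) between 0.208% and 0.414%.

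All 7 genes were found in 59 of the 107 cells, 6 in 27, 5 in 10 and only 4 in 11. Just outside the rule, 83 cells held 3 of the genes. A *Kcnj8* UMI was found in 49 of these 83 and in 6 of the 11 cells just inside, and a *Myh11* UMI in 24 of the 83 and in 0 of the 11. The *Col1a1* level of the 83 was 6.18 counts per 1000000 (CPM, the share of a gene in the summed UMIs of a set of cells, times 1000000) against 471 CPM in the 11, whereas *Col3a1* was higher outside, at 425 against 176 CPM. Another 40 cells held 4 or more of the genes but 2 or more of the excluded ones. These had a median of 14403.5 UMIs, and 6 of the 40 were called doublets by Scrublet, against 2 of the 107. Of the 59 fibroblasts with 1 excluded gene, 41 had *Tmem119*, 9 *Kcnj8*, 7 *Flt1* and 2 *Cldn5*, whereas *P2ry12* and *Myh11*, which the rule itself limits, were found in 0 of 107 cells. The exact interval for the share of cells with a UMI then reaches 3.39%. It covers counting error only, and the rule that chose the cells used both genes.

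The 5 markers given for the label are all genes of the rule. *Dcn* was found in 103 of the 107 cells, *Col1a1* in 101, *Islr* in 94, *Slc6a13* in 92 and *Lum* in 75, values that the rule itself raised. After each cell was thinned to 2000 UMIs, which left out 8 fibroblasts as too shallow, *Lum* was found in 49.5% of the fibroblasts, 0% of the mural and endothelial cells and 0.0402% of microglia, a type that should lack it. *Dcn* was likewise found in 88.9% of thinned fibroblasts and 0.0804% of microglia. All of these genes belong to the rule, so their levels follow from the selection and do not check the label. Markers outside the rule are given below, and the rule holds no gene that separates perivascular from meningeal cells.

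Markers of other cell types differed in level from list to list. Of 10 macrophage genes the summed level was 0 to 19.6 CPM per library, with 5 of the genes at 0, among them the mannose receptor gene *Mrc1*. Of 12 microglial genes the sum ran from 161 to 429 CPM. The 12 smooth muscle genes summed to 197 to 906 CPM against 39106 CPM in mural cells, led by *Myl9*, and *Pln* and *Sncg* were at 0, as was *Myh11*, which the rule limits. The 12 endothelial genes summed to 1251 to 2447 CPM, of which *Bsg* and *Itm2a* made up most. Erythroid transcripts were low in 5 libraries and high in 1, where cortical library 2 had 5435 CPM, led by Hbb-bs at 4197 CPM, and their part in that library's values was not tested. The pericyte and astrocyte lists were at higher levels in every library and the choroid plexus list in the hippocampal ones. The pericyte sum was 4966, 5534 and 7019 CPM in the cortical and 10720, 16414 and 10825 CPM in the hippocampal libraries, led by *Vtn* at 7841 CPM, and 6 of the 107 cells also met the gate for mural cells, 6 that for astrocytes and 2 that for endothelial cells. Of the 12 pericyte genes 8 were called lower than in mural cells, and *Kcnj8*, *Abcc9* and *Rgs5* are described by cell below. The astrocyte genes summed to 9932, 5453 and 6185 CPM in the cortical and 9755, 7871 and 6410 CPM in the hippocampal libraries, against 3609 CPM in mural cells. The choroid plexus genes summed to 698, 215 and 404 CPM in the cortical and 2805, 3909 and 3188 CPM in the hippocampal libraries, led by *Igf2*, and the part of this list in the results was not tested. For astrocytes, the 13 fibroblasts that met another gate, 6 of them the astrocyte gate, were left out. Of the calls against mural cells given below, 314 of 327 higher and 319 of 331 lower genes were called again. Between preparations 123 of the 180 genes higher in hippocampus and 76 of the 96 higher in cortex were called again. Leaving out the cells with a *Kcnj8* UMI, an alternative chosen after seeing the data, bears on the pericyte list, and its values are given with those cells below.

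Comparisons with mural and endothelial cells use UMIs summed over the cells of a class in each library, turned into CPM and averaged over the 6 libraries with equal weight. The 677 mural cells and 5367 endothelial cells were taken by gates on their own marker genes, and these gates allowed UMIs of at most 1 gene among *Dcn*, *Lum* and 4 markers of other cells, which by itself holds *Dcn* and *Lum* low there. All ratios are log2 of (CPM + 5) over (CPM + 5), which understates the difference for low genes. A gene was called higher or lower at 4-fold or more when its mean over both classes was at least 20 CPM. Since the cells were chosen by genes of the same contrast, the counts below describe the populations and test nothing. Against mural cells, 327 of 6534 genes (5.00%) were called higher in fibroblasts and 331 (5.07%) lower, and against endothelial cells 473 of 6857 (6.90%) were called higher and 480 (7.0%) lower. The median log2 ratio over all these genes was 0.02 against mural and -0.12 against endothelial cells. With at least 3 rule genes in place of 4, which let in the cells with *Kcnj8* or *Myh11* UMIs described above, 216 genes were higher and 6 lower than in mural cells. Against pericytes only, 268 of the 327 higher and 179 of the 331 lower genes were called again, and against smooth muscle cells only 317 and 252. Of 12 fibroblast markers outside the rule, 6 of the 8 compared with mural cells were called higher and none lower, and 7 of the 8 compared with endothelial cells were called higher and 1, *Cd34*, lower, with medians of 5.6 and 5.39. The 6 were *Ptgds*, *Apod*, *Serpinf1*, *Pdgfra*, *Mfap5* and *Col6a3*.

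In the mean over libraries the most abundant transcript of the fibroblasts after the non-coding *Malat1* was *Ptgds*, which encodes the prostaglandin D2 synthase also known as beta-trace protein. It stood at 142065, 26665 and 44371 CPM in the cortical and 25602, 32104 and 23037 CPM in the hippocampal libraries, against a mean of 128 CPM in mural and 85.4 CPM in endothelial cells. It was uneven among cells: 10 cells held 68.6% of its UMIs, and its median over cells was 2947 CPM, below the medians of *Apoe* (8476 CPM), *Apod* (7763 CPM) and *Vtn* (6003 CPM). Cortical library 1 stood apart, with more than 3 times the level of the next library, and since CPM are shares, every other gene of that library is lowered to match. In mural cells, a larger share of which were pericytes in hippocampus, *Ptgds* was at 1.92 CPM in cortex and 255 CPM in hippocampus. It averaged 160.4 CPM in microglia, with a log2 ratio of hippocampus over cortex of 4.50 there. *Apod*, which encodes the lipid carrier apolipoprotein D, was at 6366, 11010.2 and 8136 CPM in the cortical and 6789, 9431 and 13864 CPM in the hippocampal libraries. Its libraries overlapped between the preparations, and its level was 43.0 CPM in mural and 175 CPM in endothelial cells.

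**Figure D2:**
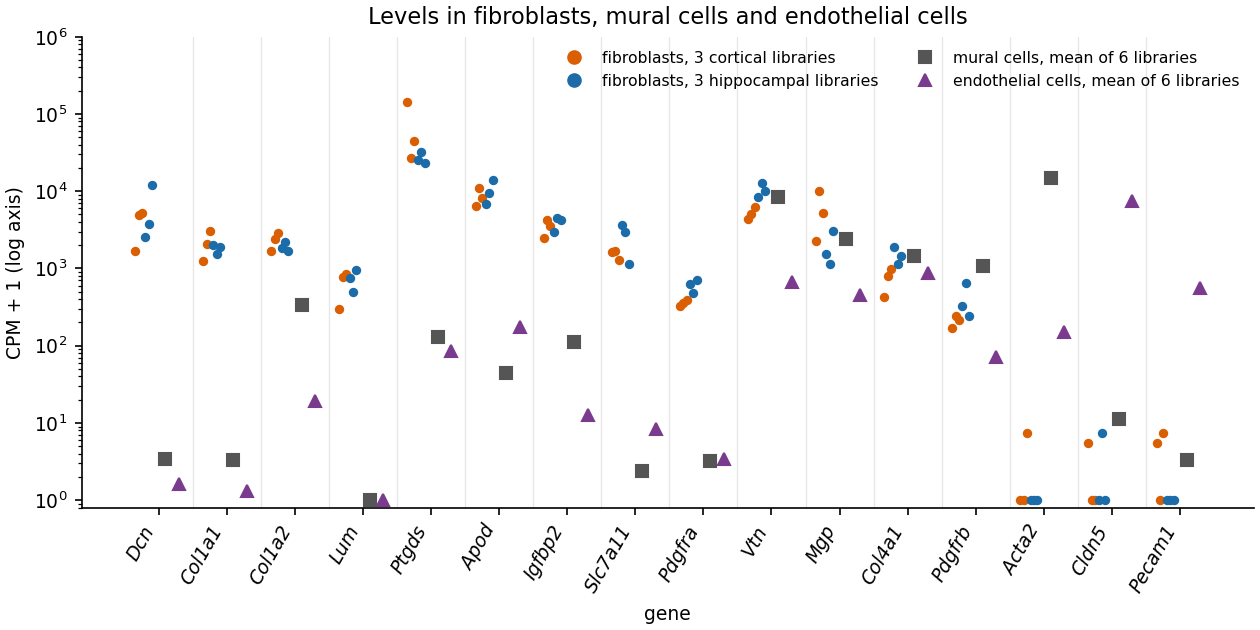
CPM + 1 on a log axis for 16 genes, with each fibroblast library as a point (cortex orange, hippocampus blue) and the mean over 6 libraries of mural cells as a square and of endothelial cells as a triangle. *Dcn*, *Col1a1*, *Ptgds*, *Apod*, *Igfbp2*, *Slc7a11* and *Pdgfra* lie above both other classes in every library, *Vtn* and *Mgp* have libraries on both sides of the mural mean, and *Acta2*, *Cldn5* and *Pecam1* lie at or near 0.

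Fibrillar collagens are the rope-forming collagens of connective tissue, and 3 of the genes listed for them, *Col1a1*, *Col1a2* and *Col3a1*, were in the rule. Of 9 listed genes 7 were abundant enough to compare, of which 4 were called higher than in mural cells and all 7 higher than in endothelial cells, with medians of 2.06 and 3.55 on the log2 scale. Without the rule genes 1 of 4 was called higher than in mural cells and all 4 higher than in endothelial cells. *Col1a1* and *Col1a2* encode the chains of type I collagen. *Col1a1* was at 1262, 2046 and 3049 CPM in the cortical and 2001, 1553 and 1881 CPM in the hippocampal libraries, with 2.33 CPM in mural and 0.335 CPM in endothelial cells. *Col1a2* was at 1659.8, 2424 and 2912 CPM in the cortical and 1822, 2206 and 1663 CPM in the hippocampal libraries, and mural cells had 333 CPM of it. The partner chains thus differed in how far they separated the classes, by 8.07 against 2.65 log2 units over mural cells. *Col3a1*, the gene of type III collagen, was at 1033 CPM in fibroblasts and 243 CPM in mural cells, a ratio just over the 4-fold limit. Of the genes outside the rule, *Col11a1* was at 55.2 CPM against 0.4 CPM in mural cells, while *Col5a1*, *Col5a2* and *Col5a3* did not pass 4-fold over mural cells (1.74, 1.28 and 0.32).

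The other collagens, none of which the rule used, were also higher in the fibroblasts. Of 15 listed, 10 could be compared with mural cells and 9 were called higher, and all 9 compared with endothelial cells were higher (medians 3.21 and 4.04). *Col6a1* and *Col6a2* encode chains of the beaded-filament type VI collagen. *Col6a1* was at 309, 355 and 443 CPM in the cortical and 375, 241 and 367 CPM in the hippocampal libraries, and the preparations overlapped, with 5.42 CPM in mural and 0 CPM in endothelial cells. *Col6a2* was at 271 CPM, *Col12a1* at 281 CPM and the transmembrane collagen gene *Col13a1* at 212 CPM. The exception was *Col8a1*, at 30.1 CPM in fibroblasts and 122 CPM in mural cells, short of the 4-fold limit at -1.86.

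Basement membrane genes were shared with mural cells. Of 18 compared, 3 were called higher than in mural cells and 1 lower, with a median log2 ratio of 0.20. *Col4a1* and *Col4a2*, the main type IV collagen chains of every vessel wall, were at 1116 and 563 CPM against 1463 and 849 CPM in mural cells. The members called higher were *Lama1*, *Col15a1* and *Col4a6*. *Lama1* encodes the alpha chain of laminin 111 and was at 134, 198 and 189 CPM in the cortical and 161, 202 and 218 CPM in the hippocampal libraries, with overlapping preparations, against 1.08 CPM in mural and 3.40 CPM in endothelial cells. *Col15a1* was at 315 CPM against 0.896 CPM, and *Col4a6* at 132 CPM against 7.47 CPM. *Lama5*, the laminin alpha chain of vessels, went the other way with 2.24 CPM in fibroblasts and 121 CPM in mural cells. Against endothelial cells 8 of 18 were called higher and 2 lower, and the lower ones were *Lama5* and *Agrn*, the gene of the proteoglycan agrin.

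Small leucine-rich proteoglycans included *Dcn* and *Lum* of the rule. Of 9 compared, 5 were higher than in mural cells and 1 lower, and 7 were higher than in endothelial cells and none lower. Without *Dcn* and *Lum*, 3 of 7 were higher than in mural and 5 of 7 higher than in endothelial cells. *Dcn*, the decorin gene, was at 1669, 4947 and 5185 CPM in the cortical and 2591, 3798 and 12098 CPM in the hippocampal libraries, and hippocampal library 3 held more than 2 times the level of any other library. The 10 cells with the most *Dcn* UMIs held 49.4% of its UMIs. Outside the rule, *Ogn* (osteoglycin) was at 576 CPM against 109 in mural cells, *Omd* (osteomodulin) at 128 against 16.2 and *Fmod* (fibromodulin) at 349 against 38.5. *Bgn*, the biglycan gene, was shared, with 838 and 472 CPM. *Aspn* (asporin) was at 21.4 CPM in fibroblasts and 572 CPM in mural cells. *Dcn* and *Lum* lie side by side on chromosome 10 (GRCm38, chr10:97479609-97518143 and chr10:97565128-97572703, both plus strand), and the next genes of that cluster, *Kera* and *Epyc*, had 0 UMIs and 1 UMI in the 107 fibroblasts.

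Elastic fibre and matricellular genes formed the largest matrix list, at 2.12% of fibroblast UMIs. Of 28 compared with mural cells 14 were higher and 2 lower, and of 27 compared with endothelial cells 20 were higher and 1 lower. *Efemp1* and *Mfap4*, genes of elastic fibre proteins, were at 445 and 250 CPM and under 1 CPM in both neighbours. *Spp1*, which encodes the secreted phosphoprotein osteopontin, was at 2206, 1715 and 1342 CPM in the cortical and 1572, 1455 and 2878 CPM in the hippocampal libraries, against 48.8 CPM in mural and 3.21 CPM in endothelial cells. Some matricellular genes did not pass 4-fold over mural cells, where *Vtn* (vitronectin) stood at 8362 CPM against 7841 CPM in fibroblasts, *Mgp* (matrix Gla protein) at 2422 against 3880.3 CPM and *Eln* (elastin) at 472 against 496 CPM. *Mgp* was uneven among the fibroblasts, with 61 of the 107 at 0 and 75.6% of its UMIs in 10 cells. *Eln* in fibroblasts rested on cortical library 2, with 80.5, 2261 and 313 CPM in the cortical libraries. *Igfbp7* and *Ltbp1* were the lower members, *Igfbp7* at 737 CPM against 5814 CPM in mural cells.

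Of 18 genes that process and cross-link collagen compared with mural cells, 2 were called higher and none lower, with a median of 0.52. Over all genes 5.00% were called higher and 5.07% lower than in mural cells. Against endothelial cells 6 of 16 were higher, where 6.90% of all genes were. The members higher than mural were *Pcolce*, whose product enhances removal of the procollagen end, at 847 CPM against 139 CPM, and the lysyl oxidase-like gene *Loxl1* at 86.1 against 8.95 CPM. *Serpinh1*, the collagen chaperone gene, was at 751 CPM in fibroblasts, 472 CPM in mural and 385 CPM in endothelial cells. Among matrix proteases and inhibitors 4 of 15 were higher than mural and 9 of 16 higher than endothelial, with 1 lower. *Mmp2*, the gelatinase A gene, was at 48.3 CPM against 0.683 CPM in mural cells, and the cathepsin gene *Ctsk* at 210.0 against 30.6 CPM.

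**Figure D3:**
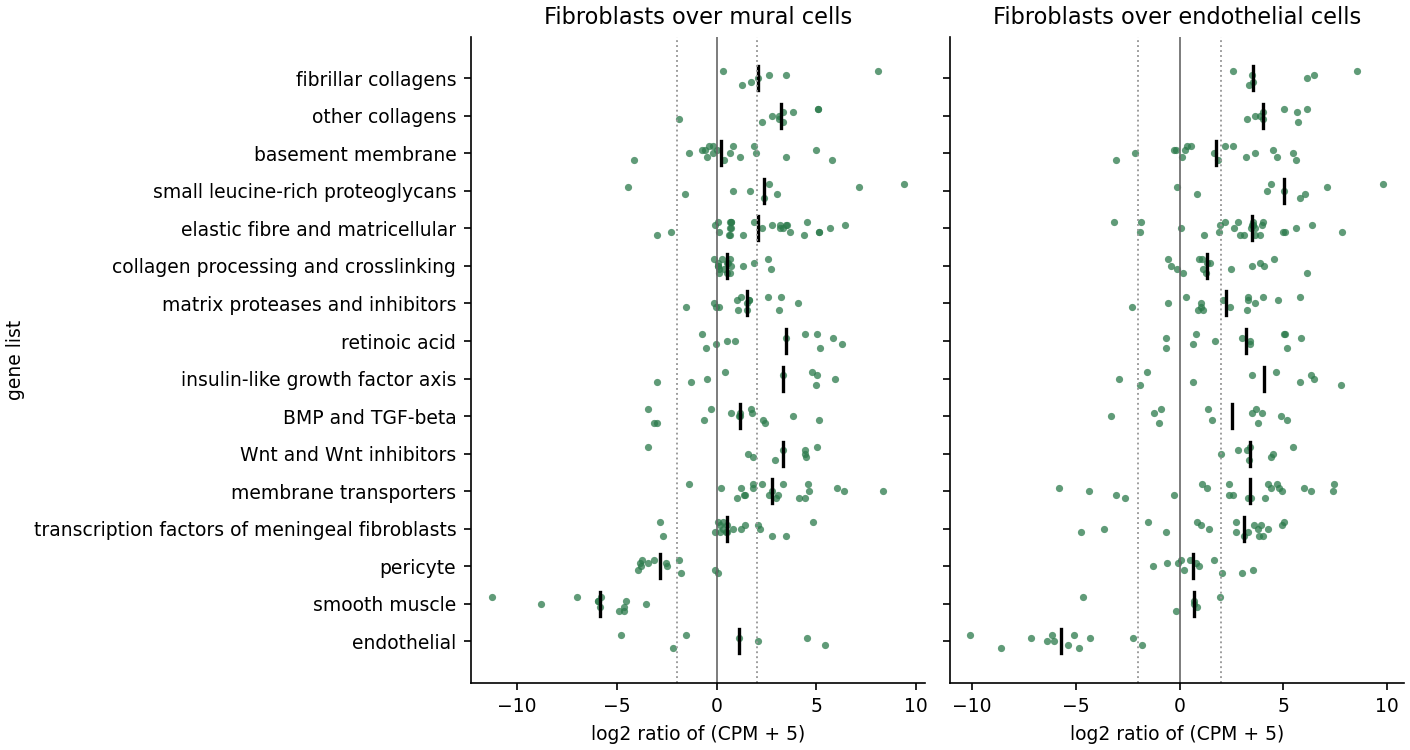
Log2 ratio of (CPM + 5) in fibroblasts over mural cells (left) and over endothelial cells (right) for the members of 16 gene lists that were abundant enough to compare, with the list median as a black bar and the 4-fold limits dotted. Collagens, retinoic acid, Wnt and transporter lists lie mostly right of 0, basement membrane genes and transcription factors centre near 0 against mural cells, and the pericyte and smooth muscle lists (left panel) and the endothelial list (right panel) lie mostly left of 0.

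Retinoic acid genes had median log2 ratios of 3.45 to mural and 3.20 to endothelial cells. Of 11 compared with mural cells 6 were higher and none lower, and of 12 compared with endothelial cells 7 were higher and none lower. *Aldh1a2* encodes the enzyme that makes retinoic acid from retinal, and it was at 268, 279 and 362 CPM in the cortical and 268, 424 and 172 CPM in the hippocampal libraries. The cortical libraries lay within the range of the hippocampal ones, and *Aldh1a2* was at 0.204 CPM in mural and 0.132 CPM in endothelial cells. The related gene *Aldh1a1* was at 494 CPM against 18.2 and 9.75 CPM. *Crabp2*, for a retinoic acid-binding protein, was at 273, 174 and 218 CPM in the cortical and 0, 52.2 and 241 CPM in the hippocampal libraries, with 1 hippocampal library at 0 and 1 inside the cortical range. The receptor genes *Rara*, *Rarb* and *Rarg* were low, at 33.8, 30.0 and 21.9 CPM, and *Rara* and *Rarg* were not called against mural cells, while *Rarb* was too low there to compare.

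Among 10 genes of the insulin-like growth factor axis, 5 of 9 were higher than in mural cells and 1 lower, and 6 of 10 higher than in endothelial cells and 1 lower. *Igfbp2*, for an IGF-binding protein, was at 2483, 4197 and 3573 CPM in the cortical and 2966, 4451 and 4254 CPM in the hippocampal libraries against 111 CPM in mural and 11.7 CPM in endothelial cells. The receptor gene *Igf1r* was the lower member, with 97.2 CPM against 776 CPM in endothelial cells. In the BMP and TGF-beta list 4 of 15 genes were higher than mural and 3 lower. *Bmp7* was at 166, 221 and 199 CPM in the cortical and 179, 169.7 and 195 CPM in the hippocampal libraries, about level across the libraries, and at 0.451 CPM in mural cells. *Bmp6* was the other BMP gene called higher, while *Tgfb2*, *Tgfb3* and *Inhba* were the lower ones, *Tgfb3* with 14.0 CPM against 199.7 CPM in mural cells. In the Wnt list 6 of 9 genes were higher than mural and 1 lower, and all 8 compared with endothelial cells were higher. *Wnt4* stood at 293 CPM, *Wnt5a* at 276 CPM and *Wnt6* at 109.9 CPM, each under 10 CPM in mural cells, and the Wnt amplifier gene *Rspo3* at 111 CPM. *Sfrp2*, for a secreted Wnt antagonist, was the mural member with 105 CPM against 5.15 CPM.

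Of the receptor genes of platelet-derived growth factor, *Pdgfra* was called higher than in mural cells and *Pdgfrb* was not called. *Pdgfra* was at 322, 355 and 391 CPM in the cortical and 625, 476 and 711 CPM in the hippocampal libraries, and 2.24 CPM in mural and 2.41 CPM in endothelial cells. *Pdgfrb* was at 170.0, 238 and 212 CPM in the cortical and 322, 646 and 241 CPM in the hippocampal libraries, with 1067 CPM in mural and 71.1 CPM in endothelial cells, a log2 ratio to mural cells of -1.79 that falls short of 4-fold. The ligand gene *Pdgfa* was at 35.1 CPM against 249 CPM in mural cells and the ligand gene *Pdgfb* at 0.543 CPM against 336 CPM in endothelial cells. Of this list of 20 genes, 4 of 10 were higher than in mural cells and 2 lower.

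Membrane transporters gave some of the widest gaps of genes outside the rule. Of 21 compared with mural cells 13, among them *Slc6a13* of the rule, were higher and none lower, and of 22 compared with endothelial cells 15 were higher and 4 lower. *Slc7a11*, for the cystine and glutamate exchanger, was at 1651, 1680.0 and 1289.8 CPM in the cortical and 3698, 3009 and 1135 CPM in the hippocampal libraries, against 1.37 CPM in mural and 7.40 CPM in endothelial cells. The organic anion transporter gene *Slc22a6* was at 501, 366 and 508 CPM in the cortical and 357, 463 and 241 CPM in the hippocampal libraries and under 1 CPM in both neighbours, and the sulfate transporter gene *Slc13a4* at 333 CPM. *Slc6a13*, the GABA and taurine transporter gene of the rule, was at 1096, 942 and 1075 CPM in the cortical and 2376, 2010.2 and 1800.3 CPM in the hippocampal libraries. Mural cells also had it, at 11.9 CPM in cortex and 109 CPM in hippocampus, where a larger share of them were pericytes. The lower ones against endothelial cells were the blood-brain barrier genes *Slc2a1*, *Abcb1a*, *Abcc4* and *Abcg2*. *Slc2a1*, the glucose transporter gene of the barrier, was at 25.8 CPM in fibroblasts and 1753 CPM in endothelial cells. *Abcg2* was at 103, 180.2 and 156 CPM in the cortical and 125, 45.7 and 0 CPM in the hippocampal libraries, with 1 hippocampal library at 0, against 653 CPM in endothelial cells.

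Connexin genes were among the 15 genes outside the rule with the largest ratio to mural cells. *Gjb2* and *Gjb6*, whose promoters are printed above, encode gap junction proteins and lie 18600 bases apart on chromosome 14. *Gjb2* was at 863, 593 and 971 CPM in the cortical and 607, 542 and 550.4 CPM in the hippocampal libraries, against 1.89 CPM in mural, 0.58 CPM in endothelial and 19.3 CPM in astrocytes. *Gjb6* was at 743, 436 and 515 CPM in the cortical and 536, 607 and 389.9 CPM in the hippocampal libraries, against 611 CPM in astrocytes, and the fibroblast libraries lay on both sides of that value. *Gja1*, the connexin 43 gene, was at 569 CPM in fibroblasts, 2.95 CPM in mural cells and 2192 CPM in astrocytes. The glutamate transporter gene *Slc1a3*, also of the astrocyte list, was at 769 CPM against 3619 CPM in astrocytes. The astrocyte water channel gene *Aqp4* was at 1.63 CPM in fibroblasts and 916 CPM in astrocytes, and *Aldoc* was at 14.2 against 3798 CPM.

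Among transcription factors known from the meninges, most were shared with mural cells. Of 19 compared, 5 were higher than mural and 2 lower, whereas 12 of 19 were higher than endothelial and 2 lower. The factors higher than mural were *Osr1* (159 against 0.746 CPM), *Prrx2*, *Foxp2*, *Zic2* and *Foxc2*. *Foxd1* was at 423 CPM in fibroblasts and 237 CPM in mural cells, *Zic1* at 526 and 359.7 CPM and *Foxc1* at 316 and 247 CPM. *Tbx18*, a factor often used to mark pericytes and smooth muscle, was at 348 CPM in fibroblasts and 127 CPM in mural cells. The lower ones were *Ebf1* and *Heyl*, with 116 and 39.6 CPM against 783 and 317 CPM.

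Of 6 chemokine and cytokine genes compared with mural cells 4 were higher and none lower. *Cxcl12*, for a chemokine that guides leukocytes and neural precursors, was at 957 CPM, against 120.5 CPM in mural and 2158 CPM in endothelial cells. *Il34* and *Csf1*, ligands of the receptor that microglia depend on, were at 259 and 96.2 CPM, and *Csf1* was called over mural cells while *Il34* was not (0.81). Of 8 complement genes compared with mural cells 3 were higher and 2 lower. *Serping1*, the C1 inhibitor gene, was at 497 CPM against 173 CPM and did not pass 4-fold. Immediate early and heat shock genes, which dissociation can raise, had 0 of 22 called higher and 4 lower against mural cells. Against endothelial cells 1 was higher and 4 lower, and the medians were -0.53 and -0.80. Over all genes 5.00% were called higher and 5.07% lower than in mural cells, and 6.90% and 7.0% than in endothelial cells. For this last list the counts called higher are near those shares, and the part of dissociation was not tested.

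Genes called lower ranked as the defining genes of the neighbours, many of which had chosen those cells. *Acta2*, the smooth muscle actin gene, was at 1.09 CPM in fibroblasts and 14975 CPM in mural cells. Genes that no gate used were *Pln* (621 CPM in mural cells, 0 in fibroblasts), *Sorbs2*, *Fbxl22*, *Sncg*, *Cnn1*, *Crip1* and *Map3k7cl*. Against endothelial cells they were *Ctla2a* (1.29 against 2061 CPM), *Ly6a*, *Ptprb*, *Pglyrp1*, *Adgrl4*, *Slco1c1* and *Sox18*, a factor of endothelial identity at 0 CPM against 497. Smooth muscle genes depended on which mural cells were taken: against pericytes only, *Tagln* changed from -5.94 to 0.19 and *Cnn1* from -5.86 to 0.15 on the log2 scale.

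A pair of markers behaved otherwise than their usual use. *Cdh5*, the vascular endothelial cadherin gene, was found in 58 of the 107 fibroblasts at 148, 122 and 208 CPM in the cortical and 143, 111 and 80.3 CPM in the hippocampal libraries, against 488 CPM in endothelial and 1.10 CPM in mural cells. *Pecam1* was at 1.83 CPM and *Cldn5* at 1.83 CPM in the same cells, but *Cldn5* is an excluded gene that the rule itself held low. *Cdh5* also stands on the arachnoid list. After thinning, *Cdh5* was found in 26.3% of fibroblasts and 0.491% of mural cells. *Tmem119*, widely used to mark microglia, was found in 41 cells (38.3%, exact interval 29.1% to 48.2%) at 31.3, 110.5 and 94.5 CPM in the cortical and 71.5, 45.7 and 45.9 CPM in the hippocampal libraries. It was found in 11.1% of thinned fibroblasts, 91.3% of microglia and 0.402% of astrocytes. It is 1 of the 6 excluded genes, so a cell with it could hold no UMI of the other 5.

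The fibroblasts varied widely among themselves. *Ptgds* had no UMI in 28 of the 107 cells and made up as much as 43.3% of the UMIs of 1 cell, and its median over cells was 2947 CPM. *Sparc*, which was found in all 107 cells, ran from 309 to 12517 CPM. *Prg4*, *Tspan8* and *Cdh1* lay wholly within their 10 highest cells. The plot of single cells shows these patterns in blocks. The blocks were set by UMIs of *Slc47a1*, *Wnt6* and *Lama1*, which were chosen with the values known, and a gene that marks a block also chose it.

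**Figure D4:**
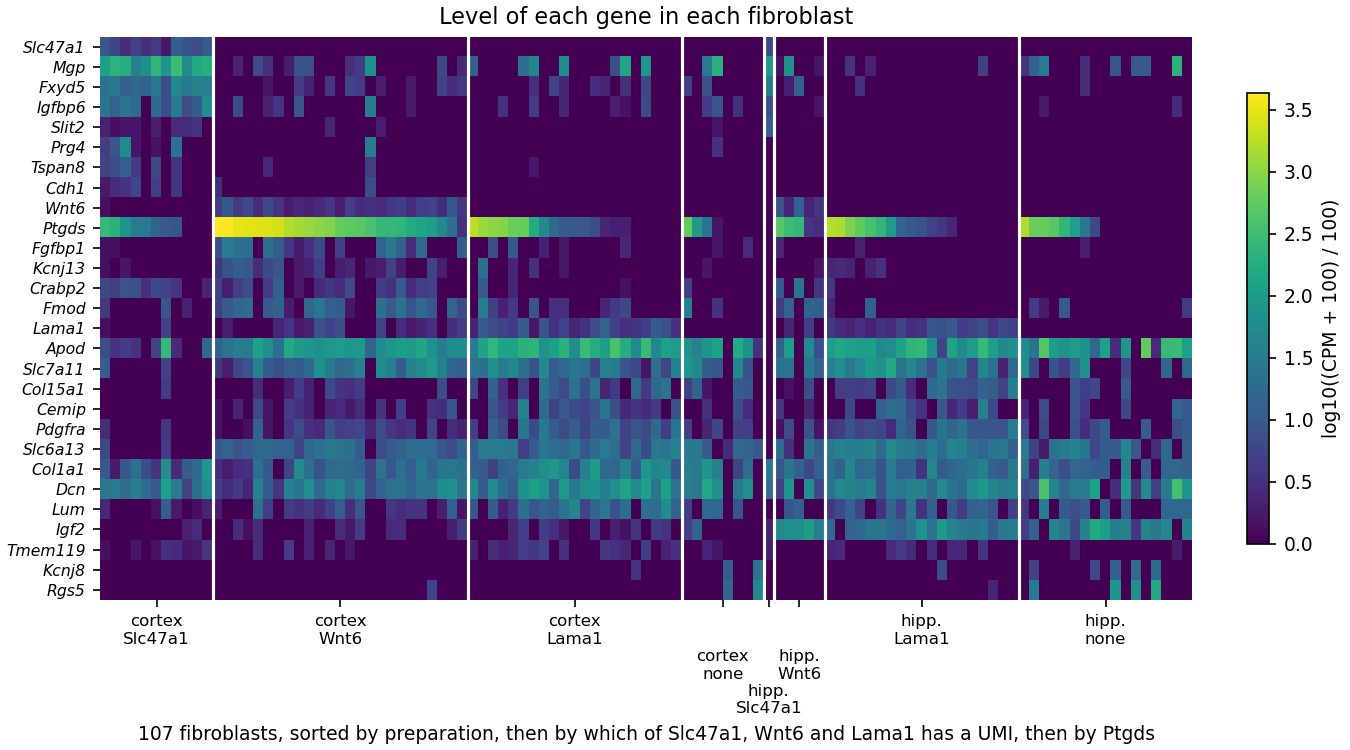
Level of 28 genes (rows) in each of the 107 fibroblasts (columns) as log10((CPM + 100) / 100), with cells sorted by preparation, then by whether a UMI of *Slc47a1*, else *Wnt6*, else *Lama1*, was found, then by *Ptgds*. Cells with *Slc47a1* hold *Mgp* and *Fxyd5*, the highest *Ptgds* lies in cortical cells with *Wnt6*, and *Igf2* is high in hippocampal cells.

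A small set of 12 cells held *Slc47a1*, which encodes an organic cation exporter, 11 of them cortical and 1 from hippocampal library 1. All 12 also had *Mgp* and *Fxyd5*, genes of the list fixed for the dura. *Mgp* was at 15048 CPM in them and 1883 CPM in the other 95 cells, and *Fxyd5*, for a regulator of the sodium pump, at 2593 against 85.1 CPM. *Igfbp6* was at 1713 against 139 CPM and the guidance ligand gene *Slit2* at 154 against 3.70 CPM. Several fibroblast genes were low in the 12 cells: *Pdgfra* was at 47.7 against 511 CPM, *Slc6a13* at 95.4 against 1625 CPM and *Vtn* at 281 against 8684 CPM. *Col1a1* and *Dcn* differed less, at 1686 against 2179 and 3065 against 4961 CPM. *Slc6a13*, *Col1a1* and *Dcn* are genes of the rule, so their levels follow in part from the selection. Of the 12 cells 2 had *Slc6a13* and 6 had *Lum*, and the rule then required most of its other genes. The 12 were deep cells, with a median of 15767 UMIs against 7472 in the others, and 1 of the 12 held *Wnt6* and 2 held *Lama1*.

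*Prg4*, which encodes the lubricant proteoglycan 4, was found in 8 cells, the epithelial cadherin gene *Cdh1* in 8 and the tetraspanin gene *Tspan8* in 9, all of them from the cortical libraries. Each pair of these genes shared 7 cells, and 6 of the 8 *Prg4* cells and 6 of the 8 *Cdh1* cells were among the 12 with *Slc47a1*. These genes come from the arachnoid list (*Cdh1*, *Slc47a1*) and from the difference between preparations (*Prg4*, *Tspan8*), and *Mgp* and *Fxyd5* from the dura list. *Slc47a1* itself chose the 12 cells. *Ptgds*, the most abundant gene of the arachnoid list, was lower in them, at 7678 against 70188 CPM in the other 95. The cells thus carry some markers of more than 1 layer, lack a high level of others, and are called here by their genes.

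*Wnt6* was found in 31 cells, 26 cortical and 5 hippocampal, with a median depth of 11492 UMIs against 7315.5 in the rest. *Ptgds* was at 120499 CPM in these cells and 18949 CPM in the other 76. *Fgfbp1*, for a carrier of fibroblast growth factors, was at 789 against 31.1 CPM, the potassium channel gene *Kcnj13* at 239.7 against 22.9 CPM and *Fmod* at 894 against 141 CPM. Collagen was lower in them, with *Col1a1* at 1317 against 2574 CPM and *Col15a1* at 79.9 against 440.3 CPM. Cortical library 1 held 14 of the 31 cells out of 20 fibroblasts, and that library also had the highest *Ptgds*.

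*Lama1* was found in 59 cells of all 6 libraries, 38 cortical and 21 hippocampal, with a median depth of 7694 UMIs against 8486.5 in the rest. *Pdgfra* was at 671 CPM in these cells and 155 CPM in the other 48, *Col15a1* at 504 against 79.4 CPM and *Cemip*, for a hyaluronan-degrading protein, at 394 against 127 CPM. Every one of the 59 had UMIs of *Apod*, *Slc7a11* and *Vtn*, and of *Slc6a13*, a gene that the rule used. Of the 107 cells, 25 had none of *Slc47a1*, *Wnt6* and *Lama1*, 63 had 1, 18 had 2 and 1 had all 3, so the sets run into each other. Summed UMIs of the inner meningeal and perivascular list and of the arachnoid list, both without rule genes and after thinning, had a Spearman rho of -0.38 across 99 cells, and the SD of rho over the 6 libraries was 0.22. For the inner and dura lists rho was -0.10 and for the arachnoid and dura lists -0.02, which turned to 0.22 when *Ptgds* was left out of the sums, an alternative chosen after seeing the data, and all of these are weak values in sparse counts. The 99 cells come from 6 libraries and were all set to 2000 UMIs, so the sums are not free of each other.

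*Kcnj8*, a pericyte gene that the rule let through when no other excluded gene was there, was found in 9 cells, 6 hippocampal and 3 cortical, and 8 of the 9 also had *Abcc9*, which encodes the partner subunit of its potassium channel. The pericyte gene *Rgs5* was at 4760.2 CPM in the 9 cells and 3.16 CPM in the other 98. Their *Col1a1* was 277 against 2183 CPM, and none had *Lum*. *Vtn*, which stands on the pericyte list, was at 20285 CPM in the 9 cells and still at 6393 CPM in the others. The 9 cells had a median of 5506 UMIs against 8440. Without them 344 genes were higher and 371 lower than in mural cells, and 134 of the 180 genes called higher in hippocampus and 77 of the 96 called higher in cortex, described next, were called again.

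Fibroblasts chosen by the same rule were compared between the 2 preparations, 65 from cortex and 42 from hippocampus. Their mix of cells was not the same. *Slc47a1* was found in 11 cells from cortex and 1 from hippocampus, *Wnt6* in 26 and 5, and *Kcnj8* in 3 and 6. *Lama1*, with 38 and 21 cells, was more evenly spread. The differences below therefore describe the cells caught in each preparation, and not 1 uniform cell type. A gene was called different at 2-fold or more, with a mean of at least 50 CPM and no overlap between the 3 cortical and 3 hippocampal libraries. Of 3227 genes, 180 (5.58%) were called higher in hippocampus and 96 (2.97%) higher in cortex, and 745 (23.1%) did not overlap at any ratio. The median log2 ratio over all was 0.10. These counts depended on which library was left out. The number higher in cortex was 161 without cortical library 1, 166 without hippocampal library 2 and 148 without hippocampal library 3. In hippocampus 280 and 288 genes were higher without hippocampal library 2 or 3. With each of the other libraries left out, 95 to 112 genes were higher in cortex and 187 to 242 in hippocampus. Which genes were called also depended on how the cells were chosen and averaged. With none of the 6 excluded genes allowed, 54 of the 180 and 45 of the 96 were called again, with the mean of per-cell CPM 81 and 57, and with the rule applied after thinning 84 and 55. Hippocampal fibroblasts were fewer and held 296620 UMIs against 703702, so their low values are less precise: 3 UMIs, the floor used for a gene not found, are 10.1 CPM there and 4.27 CPM in cortex. Of the 276 calls, 217 did not pass 2-fold in the same direction in mural cells, endothelial cells or microglia of the same libraries, and 12 passed it in all of those 3.

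**Figure D5:**
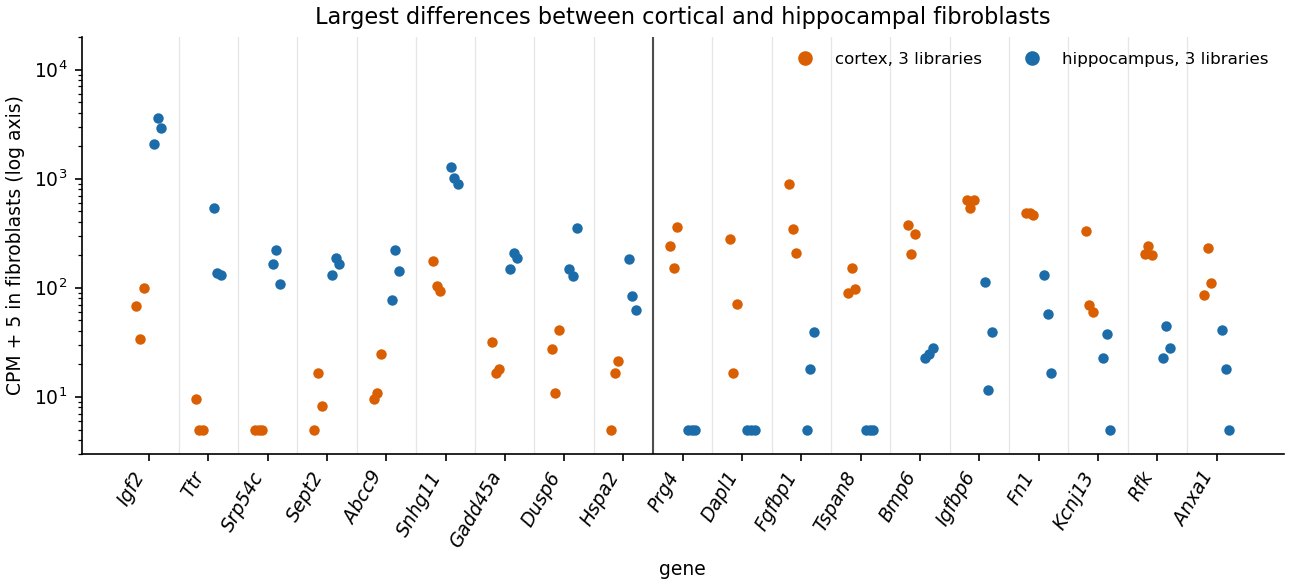
CPM + 5 on a log axis in the fibroblasts of each library for genes among those with the largest called ratios each way, higher in hippocampus left of the vertical line and higher in cortex right of it. The 3 cortical (orange) and 3 hippocampal (blue) libraries do not overlap for any gene shown, which the call required.

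The genes higher in hippocampus were led by *Igf2*, the insulin-like growth factor 2 gene, at 62.6, 29.1 and 94.5 CPM in the cortical and 2055, 3557 and 2913 CPM in the hippocampal libraries, a log2 ratio of 5.41. Mural cells of the same libraries went the same way, from 2.39 to 278 CPM, though a larger share of them were pericytes in hippocampus. Microglia moved by 0.69. *Ttr*, the transthyretin gene of the choroid plexus, was at 4.47, 0 and 0 CPM in the cortical and 536, 131 and 126 CPM in the hippocampal libraries, and it was higher in hippocampal mural cells (2494 CPM), endothelial cells (818 CPM) and microglia as well. Of the 12 genes of the choroid plexus list 3 were at 0 in fibroblasts, *Folr1* and *Otx2* among them. The sum of that list was higher in every hippocampal library than in any cortical one, and the part of choroid plexus RNA in these values was not tested. *Srp54c*, found only in hippocampal fibroblasts, and *Sept2* differed by 5.04 and 4.02 and by 3.86 and 3.04 in microglia, so they marked the preparation in every class examined. The cortical and hippocampal counts name different versions of the counting software and list different gene models, whose part in such shifts was not tested.

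A further set was higher in hippocampal fibroblasts, with smaller ratios in mural cells, endothelial cells and microglia. *Snhg11*, a long non-coding RNA, was at 170.0, 98.8 and 87.9 CPM in the cortical and 1269, 999 and 894 CPM in the hippocampal libraries, a log2 ratio of 3.09 against 0.49 in mural cells, 1.35 in endothelial cells and 1.27 in microglia. *Gadd45a*, a DNA damage response gene, was at 26.8, 11.6 and 13.03 CPM in the cortical and 143, 202 and 183 CPM in the hippocampal libraries, with ratios of 0.16, 0.43 and -0.08 in those classes. *Dusp6*, a brake on ERK signalling, was at 22.4, 5.81 and 35.8 CPM in the cortical and 143, 124 and 344 CPM in the hippocampal libraries, and *Hspa2*, a heat shock protein gene, at 0, 11.6 and 16.3 CPM in the cortical and 179, 78.3 and 57.3 CPM in the hippocampal libraries. *Edn3*, for the peptide endothelin 3, was at 85.0, 169 and 287 CPM in the cortical and 661, 489 and 711 CPM in the hippocampal libraries, and it was among the 15 genes with the largest ratio to mural cells (6.34). *Abcc9* was at 4.47, 5.81 and 19.5 CPM in the cortical and 71.5, 215 and 138 CPM in the hippocampal libraries, and 8 of its 10 cells also had *Kcnj8*. The ratio of *Abcc9* went from 3.29 to 1.63 without the cells with *Kcnj8* UMIs and to 0.92, under 2-fold, with the rule applied after thinning, where that of *Gadd45a* went from 3.03 to 1.86, and with none of the excluded genes allowed that of *Dusp6* went from 2.99 to 1.18. Of 19 transporter genes compared, 2 were higher in hippocampus, the solute carrier *Slc19a1* and the lipid transporter *Abca8a*, and 3 were higher in cortex. Of 5 chemokine and cytokine genes, *Il33* and *Csf1* were higher in hippocampus and none in cortex, where 5.58% of all genes were higher in hippocampus and 2.97% in cortex.

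Among the genes higher in cortex several rested on few cells. *Prg4* was at 237, 145 and 358 CPM in cortex and had 0 UMIs in hippocampus. Its pooled cortical level was 26.4 times the floor of 3 UMIs over the hippocampal preparation. *Dapl1* was at 273, 11.6 and 65.1 CPM, found in 4 cells, and *Tspan8* at 85.0, 145 and 91.2 CPM. Both had 0 hippocampal UMIs, with pooled cortical levels of 11.7 and 10.1 times that floor. The floor counts UMIs and not cells, so for genes held by few cells these ratios are not lower bounds of a difference. For *Dapl1* the ratio to the floor rested on cortical library 1, without which it was 4.54. With at least 5 rule genes the log2 ratio of *Dapl1* between preparations went from -4.60 to -1.83. With up to 2 excluded genes allowed, that of *Prg4* went from -5.65 to -3.59 and that of *Tspan8* from -4.49 to -2.98, and with at least 5 rule genes that of *Prg4* went to -4.35. Without the cells that held *Slc47a1*, *Prg4*, *Cdh1* or *Tspan8*, an alternative chosen after seeing the data, *Dapl1* had a log2 ratio of 0, while *Prg4* and *Tspan8* were at 0 by construction. In that comparison 58 genes were called higher in cortex, 35 of which were among the 96. *Rfk*, the riboflavin kinase gene, went from -2.77 to 0.06 in the same comparison. Other genes were found in more cells. *Bmp6* was at 371, 198 and 303 CPM in the cortical and 17.9, 19.6 and 22.9 CPM in the hippocampal libraries, found in 55 cells, and its ratio of -3.56 compared with -1.68 in mural and -0.21 in endothelial cells.

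Some matrix and transport genes were higher in cortex, though these lists had calls both ways. Of 24 elastic fibre and matricellular genes 3 were higher in cortex and 2 in hippocampus, and of 8 small leucine-rich proteoglycans 1 was higher each way. Of 6 fibrillar collagens 1 was higher in cortex, as was 1 of 8 other collagens, and 0 were higher in hippocampus. Of 11 matrix proteases and inhibitors 1 was higher in hippocampus and 0 in cortex. *Fn1*, the fibronectin gene, was at 483, 482 and 463 CPM in the cortical and 125, 52.2 and 11.5 CPM in the hippocampal libraries, and *Col5a1* at 93.9, 105 and 104 CPM in the cortical and 0, 26.1 and 11.5 CPM in the hippocampal libraries. *Igfbp6* was at 631, 535 and 629 CPM in the cortical and 107, 6.53 and 34.4 CPM in the hippocampal libraries, and *Fgfbp1* at 890.3, 343 and 202 CPM in the cortical and 0, 13.1 and 34.4 CPM in the hippocampal libraries, with 1 hippocampal library at 0. For *Fgfbp1*, 10 cells held 85.8% of the UMIs, and its log2 ratio went from -4.54 to -1.64 with the rule applied after thinning and to -2.63 with up to 2 excluded genes allowed. *Kcnj13* and the annexin gene *Anxa1* had log2 ratios of -2.81 and -2.74. The periostin gene *Postn*, the sulfate transporter gene *Slc26a2* and the Wnt amplifier gene *Rspo3* were higher in cortex as well, *Slc26a2* at 152, 192 and 182 CPM in the cortical and 35.7, 19.6 and 11.5 CPM in the hippocampal libraries. *Slc47a1* itself was called, at 152, 98.8 and 156 CPM in the cortical and 89.3, 0 and 0 CPM in the hippocampal libraries. Of the 7 genes of the rule none was called and their median log2 ratio was -0.23, with *Slc6a13* just short of 2-fold higher in hippocampus at 0.99 and *Islr* just short of 2-fold higher in cortex at -0.95. Of 16 basement membrane genes 1 was called, *Col4a1* at 429, 796 and 971 CPM in the cortical and 1912, 1142 and 1445 CPM in the hippocampal libraries, with log2 ratios of -0.62 and -0.49 in mural and endothelial cells. Counts of 0 of 7 and 1 of 16 are near the shares of all genes called, 5.58% and 2.97%, and so say nothing particular to these lists.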

How the data were processed

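Single-cell RNA was measured in 3 cortical and 3 hippocampal libraries, 10x Genomics Chromium. The deposited values are raw UMI counts per gene and barcode, which the authors made with Cell Ranger: the submitters' processing notes name version 5.0.1 and mm10, whereas the matrix headers name 3.0.1 (cortex) and 3.1.0 (hippocampus). The tables list 31053 (cortex) and 27998 (hippocampus) gene identifiers, and the 27514 shared ones were used. Gene coordinates are GENCODE M21 on GRCm38.

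Kept barcodes had between 250 and 6000 genes, with less than 25% of UMIs from mitochondrial genes. Mural, endothelial, microglial and astrocyte classes needed UMIs of at least 4 of their own marker genes and of at most 1 of 6 others. Doublets were scored with Scrublet, at an assumed 0.8% per 1000 barcodes, and kept. UMIs were summed per class and library, scaled to CPM, and compared as log2 ratios after adding 5 CPM. Shares of cells were also computed after thinning each cell to 2000 UMIs. No test was run, since each preparation is 1 pooled suspension. Exact Clopper-Pearson intervals (95%) and the floor of 3 UMIs cover counting error only. The steps were tested on simulated data. Python 3.11.15, numpy 2.4.6, scipy 1.17.1, pandas 2.3.3 and scanpy 1.11.5 were used.

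The fibroblast rule, the gene lists and the rule for named genes were chosen with earlier results of these data known. Genes named are those of the rule and of the lists, the 15 with the largest and 10 with the smallest ratio to mural and to endothelial cells outside the rule, and the 10 with the largest called ratio each way between preparations, leaving out mitochondrial, ribosomal protein, predicted, Xist and hemoglobin genes. Genes outside it (*Malat1*, *Ptn* and *Itih5*, ranked by abundance) were named after their values were seen. Other thresholds, added CPM, depths, classes and sets of libraries were tried as alternatives. A cortical preparation from mice aged 9 weeks was not analysed here. The values of some genes are not reported here.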

Additional observations from a re-analysis of the deposited data

Results flagged for a closer look

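Some of the named genes had every cortical library on one side of a neighbour and every hippocampal library on the other side. The values are mean log2 ratios of (CPM + 5) over the 3 libraries of a preparation, and none of these differences was tested. Against mural cells, the stress gene *Gadd45a* had a mean of -1.727 in cortex and 1.186 in hippocampus, and *Vtn* had 0.5865 and -0.3607, respectively. *Vtn* is on the pericyte list, and 109 of the 276 cortical and 273 of the 401 hippocampal mural cells were pericytes. The part of this mix in the 2 values was not tested. Against endothelial cells, the pericyte channel gene *Abcc9* had -1.776 in cortex and 1.474 in hippocampus, and *Col4a1* had -0.567 and 0.9994. *Abcc9* was at 1027 CPM in the 9 fibroblasts with *Kcnj8* UMIs, 6 of them hippocampal, and at 5.27 CPM in the other 98. The signalling and stress genes *Dusp6* and *Hspa2* had -2.605 and -0.6494 in cortex and 1.125 and 1.857 in hippocampus. In the other direction, also against endothelial cells, *Fxyd5* had 0.9178 in cortex and -3.472 in hippocampus, and *Pdgfa* had 0.7675 and -1.18. *Fxyd5* rested on few cells: 10 cells held 84.9% of its UMIs. It was at 2593 CPM in the 12 cells with *Slc47a1*, 11 of them cortical, and at 85.1 CPM in the other 95. *Dapl1* had 3.614 and -0.6245, and *Rfk* 2.036 and -1.035, and without the cells with *Slc47a1*, *Prg4*, *Cdh1* or *Tspan8* UMIs their ratios between preparations were 0 and 0.06.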

How the results depend on the processing

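With at least 3 rule genes the fibroblasts were 0.701% of the cortical and 97 cells or 0.683% of the hippocampal cells, and 216 genes were higher and 6 lower than in mural cells. With none of the 6 excluded genes allowed, 27 cortical (0.204%) and 21 hippocampal (0.148%) cells were left. Adding 20 CPM gave 186 genes higher and 185 lower than in mural and 267 and 281 than in endothelial cells. Without a filter on low values 589 genes were higher in hippocampus and 479 in cortex. A limit of 2-fold in place of 4-fold gave 680 higher and 687 lower genes against mural and 846 and 1064 against endothelial cells, and 4-fold in place of 2-fold left 26 genes higher in hippocampus and 27 in cortex. Against pericytes only, *Tagln* (0.19) and *Cnn1* (0.15) turned positive. Among alternatives chosen after seeing the data, leaving out cells with *Slc47a1*, *Prg4*, *Cdh1* or *Tspan8* gave 58 genes higher in cortex, 35 of them among the 96, and turned *Rfk* to 0.059, and without *Ptgds* rho of the arachnoid and dura lists was 0.22. Leaving out single libraries gave 35 to 50 cortical and 22 to 32 hippocampal fibroblasts, 0.393% to 0.572% and 0.235% to 0.338% of cells, 315 to 343 genes higher and 312 to 356 lower than in mural cells, 469 to 481 higher and 469 to 493 lower than in endothelial cells, 187 to 288 higher in hippocampus and 95 to 166 higher in cortex. Of 1816 values of single ranked genes and rule genes under the alternatives, 1586 moved by less than the spread between libraries. Another 227 moved by more without changing sign, and 3 reversed. The ratios of the rule genes to the neighbours follow from the selection. No paired analysis was possible because the results come from no test and the replicate numbers name technical replicates of separate pools, whereas fibroblasts and their neighbours share the 6 libraries and were compared as means over them. Depth limits the hippocampal values most, where 10.1 CPM is the floor of 3 UMIs.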

Other observations

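Lipid carriers and secreted factors not described above were also abundant. *Apoe*, which encodes apolipoprotein E, was at 13238, 8144 and 10042 CPM in the cortical and 5949.5, 11284 and 7454 CPM in the hippocampal libraries, against 358 CPM in mural, 1427 CPM in endothelial and 27429 CPM in astrocytes. Of 10 prostaglandin and lipid genes compared with mural cells 6 were higher, the 6 being *Ptgds*, *Ptgfr*, *Apoe*, *Apod*, *Clu* and *Abca1*, and none was lower. The prostaglandin F receptor gene *Ptgfr* was at 72.6 CPM against 10.9 CPM in mural cells. *Lpl*, for lipoprotein lipase, was called higher in hippocampal fibroblasts, at 22.4, 29.1 and 29.3 CPM in the cortical and 53.6, 71.8 and 126 CPM in the hippocampal libraries. *Ptn*, for the growth factor pleiotrophin, was at 7708, 6708 and 9045 CPM in the cortical and 12649, 15925 and 9747 CPM in the hippocampal libraries, against 3885 CPM in mural cells. *Itih5*, for a protein that binds hyaluronan, was at 2053 CPM against 175 CPM in mural cells.

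*Serpinf1*, which encodes pigment epithelium-derived factor, was at 631, 738 and 785 CPM in the cortical and 750.4, 561 and 803 CPM in the hippocampal libraries, against 1.08 CPM in mural and 1.85 CPM in endothelial cells. *Gsn*, the gelsolin gene, was at 754 CPM against 333 CPM in mural cells and did not pass 4-fold (1.17). Of the same list of fibroblast markers, *Pi16* was at 8.41 CPM, *Cd34* at 28.2 CPM and *Thy1* at 0.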
